A study of Mus musculus with 4 samples.

Results

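The large-subunit ribosomal protein genes were examined in ribosome footprint libraries of MLE-12 cells, a mouse lung epithelial line that carries the SV40 large T antigen and serves as a model of alveolar type 2 cells. The genes were taken by Ensembl ID from a fixed list of 35, and all 35 were found among the 53465 IDs of the count table. The list runs from Rpl3 to Rpl38 and adds the stalk genes Rplp0, Rplp1 and Rplp2. It does not hold every large-subunit gene (Rpl21, Rpl34 and Rpl41, for example, are not on it).

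In ribosome profiling, short RNA fragments shielded by ribosomes are sequenced, so that the count on a gene reflects both the amount of its mRNA and how densely ribosomes sit on it. Libraries came from 2 control samples (replicates 1 and 2, cells given no 1-nitropyrene) and 2 samples of cells given 5 µM 1-nitropyrene for 12 h (replicates 2 and 3). 1-Nitropyrene, a nitrated polycyclic aromatic hydrocarbon, occurs in diesel exhaust. The series asks how it acts on translation, of Fbxw7 in particular. All libraries are of 1 established cell line, and a vehicle in the control medium is not given in the labels. Whether the samples of a group were separate cultures is not stated in the labels, and the spread behind each p-value may therefore be technical. Where a pair of values is given for a group, it follows the order of the replicate numbers. RNA libraries of the same cells were not analysed here, so more mRNA and denser ribosomes on the same mRNA cannot be told apart in any value below.

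The large subunit holds the peptidyl transferase centre, where amino acids are joined, and the tunnel through which the new chain leaves. Its proteins are made in the cytoplasm, carried to the nucleolus, fitted onto ribosomal RNA and exported, and most are needed in near-equal numbers. In mammals nearly all their mRNAs start with a C followed by a run of pyrimidines, the 5′ terminal oligopyrimidine (TOP) tract, through which mTORC1 signalling and the binding protein LARP1 set their translation together. Some of these proteins have further roles when they are not in ribosomes: Rpl5 and Rpl11, bound to 5S ribosomal RNA, inhibit the ubiquitin ligase MDM2 and so stabilise p53.

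The starts of the genes are shown because the TOP tract is the translational control element that the family shares. RefSeq's promoter table (GRCm38.p6, the same assembly as the mm10 build of the counts) had 29 entries for 26 of the 35 genes, and Rpl3, Rpl7, Rpl8, Rpl17, Rpl23a, Rpl30, Rpl32 and Rplp1 are among those without one. Each line gives 15 bases before and 15 bases from an annotated start, 5′ to 3′ on the gene's strand, with the longest run of C and T in capitals. The first lines are the genes whose footprints passed the test described below and have an entry (Rpl19 has a pair of starts), with Rpl5 as the partner of Rpl11.
Rpl11 (chr4:136053379-136053408, minus strand): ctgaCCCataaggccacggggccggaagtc
Rpl5 (chr5:107900513-107900542, plus strand): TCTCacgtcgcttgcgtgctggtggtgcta
Rpl19 (chr11:98026695-98026724, plus strand): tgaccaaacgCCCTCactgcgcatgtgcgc
Rpl19 (chr11:98026909-98026938, plus strand): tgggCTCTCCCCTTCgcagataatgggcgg
Rpl13a (chr7:45128731-45128760, minus strand): gaaaccctgcgacaagaCCTCCTCCTTTCC
Rpl38 (chr11:114668565-114668594, plus strand): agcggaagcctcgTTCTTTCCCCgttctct
The next lines are the other genes whose annotated start is itself a C followed by at least 4 bases that are C or T.
Rpl14 (chr9:120571502-120571531, plus strand): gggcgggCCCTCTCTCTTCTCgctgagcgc
Rpl15 (chr14:18270972-18271001, minus strand): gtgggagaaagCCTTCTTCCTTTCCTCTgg
Rpl28 (chr7:4792950-4792979, plus strand): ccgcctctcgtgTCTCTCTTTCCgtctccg
Rpl35 (chr2:39005117-39005146, minus strand): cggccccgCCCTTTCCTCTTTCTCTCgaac
Rplp2 (chr7:141447636-141447665, plus strand): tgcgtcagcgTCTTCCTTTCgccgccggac

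On the gene's own strand, a C at the annotated start followed by at least 4 bases of C or T stood in 6 of the 29 entries, or 20.7%, against 2.51% of all 32851 entries of the table. A run of at least 8 bases of C or T anywhere in the same 30 bases, which can overlap the first match, stood in 12 of 29 entries (41.4%) against 12.0% of all entries. Annotated starts can lie some bases from the true start of transcription, so an entry with no match says only that these letters are not at that position. Of the 6 genes with the tract at the annotated start, Rpl38 was called lower after 1-nitropyrene, and Rpl14, Rpl15, Rpl28, Rpl35 and Rplp2 did not pass the test. Their log2 fold changes were -0.70 for Rpl38, 0.19 for Rpl14, 0.41 for Rpl15, -0.33 for Rpl28, -0.33 for Rpl35 and -0.43 for Rplp2.

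The libraries held between 1136145 and 1357034 counts, and 13738 IDs had a count in any of them. Of these, 7719 passed a filter on low counts and were tested together by edgeR's quasi-likelihood test after TMM scaling. Calls were made where the p-value, adjusted by Benjamini-Hochberg over these genes, was under 0.05. Levels below are in CPM, counts scaled to a library of 1000000 after TMM. The limit that a count of 0 sets was 2.28, 2.53, 2.58 and 2.38 CPM in the 4 libraries, which covers counting error only. Markers of alveolar type 2 and other cell types were not checked, since the count table gives IDs without symbols and the gene table used here carries Ensembl IDs for 0 genes. The names of the 35 genes come with the list, and other ribosomal, TOP and TORC1 genes were not looked up for the same reason.

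As a family the large-subunit genes did not move one way after 1-nitropyrene. Of the 35 genes, 31 passed the filter, and of these 4 rose (Rpl11, Rpl8, Rpl19 and Rpl13a), 2 fell (Rpl38 and Rpl32) and 25 did not pass the test. The 4 of 31 are 12.9%, beside 9.68% of all tested genes called higher, and the 2 of 31 are 6.45%, beside 7.58% called lower, so both shares lie near those of all genes. Rpl13a was tested only because its treated libraries passed the filter. Among genes that reached the filter's level in all 4 libraries, 3 of 25 members (12.0%) were called higher and 2 (8%) lower, beside 10.6% and 7.43% of 6243 genes. The median log2 fold change was -0.014 over the 31 genes and -0.0076 over all 7719 genes, with 14 of the 31 above 0 and 17 below. The middle of the family was narrower than that of all genes, with quartiles of -0.26 and 0.16 against -0.36 and 0.32. Where the mean count was at least 50 and the precision better, the median was 0.054 over 16 large-subunit genes and 0.046 over 3242 genes. The quartiles at that depth were -0.14 and 0.16 against -0.21 and 0.30. The calls depended on the tool: DESeq2's Wald test called Rpl11 higher and 0 members lower, against 4 and 2 with edgeR. It gave an adjusted p for 15 members and 2818 genes, of which 8.45% were called higher and 2.73% lower. At an unadjusted DESeq2 p under 0.05, 2 members were higher and 2 lower, but the share of all genes at that level was not computed. The unadjusted edgeR p was under 0.05 for 9 of the 31 members and for 29.9% of all tested genes. Scaling to total counts moved the medians of the members and of all genes alike, to -0.18 and -0.17.

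**Figure D1:**
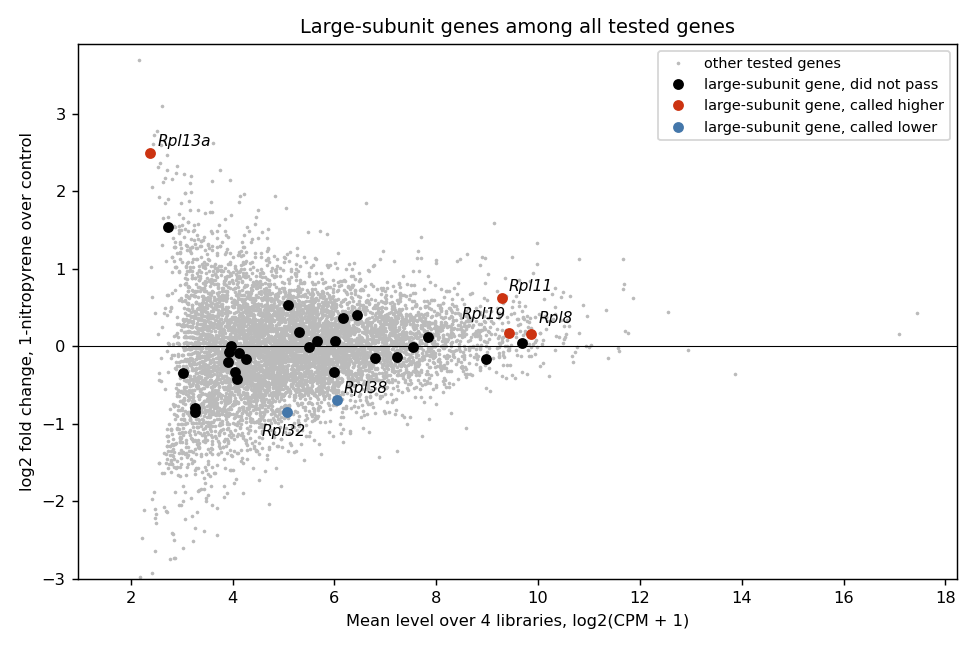
The log2 fold change of 1-nitropyrene over control (vertical axis) is plotted against the mean of log2(CPM + 1) over the 4 libraries (horizontal axis) for all tested genes, with 1 other gene lying outside the vertical range. Grey points are other genes, and large points are the 31 large-subunit genes, red where called higher, blue where called lower and black where not called; they lie on both sides of 0 with a median of -0.014.

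In sum, the 35 genes held 6247 and 5678 counts in the controls and 6039 and 6479 after 1-nitropyrene. This was 0.495% (exact binomial 95% interval 0.483 to 0.508) and 0.500% (0.487 to 0.513) of all counts in the controls, and 0.486% (0.474 to 0.498) and 0.477% (0.466 to 0.489) after 1-nitropyrene. The group means were 0.498% ± 0.0032 and 0.482% ± 0.0059 (SD, n = 2 each), with both 1-nitropyrene libraries below both controls. With 2 libraries a group, the exact two-sided permutation test gives p = 0.333, the smallest it can give. After TMM scaling the order turned: the summed level was 4771 ± 27.5 CPM in controls and 5164 ± 45.7 after 1-nitropyrene (SD, n = 2 each), a ratio of 1.08. Without the 2 gene IDs that hold the most counts in the table, whose share was 29.7% in each control and 32.9% and 33% after 1-nitropyrene, the large-subunit share was 0.704% and 0.711% against 0.724% and 0.713%. Most of the gain in the TMM-scaled sum lay on Rpl11: without it, the sum was 4268 ± 25.7 and 4392 ± 4.60 CPM, a ratio of 1.03. Whether large-subunit footprints were higher or lower after 1-nitropyrene thus depends on the scaling and on whether those 2 IDs are counted. The data hold no added standard that would give absolute amounts.

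The counts were spread very unevenly over the 35 genes. The 5 most deeply counted genes (Rpl8, Rpl27, Rpl19, Rpl11 and Rpl4, singled out after their values were seen) held 72.0% of all large-subunit counts, and 9 of the 31 tested genes had a mean count under 20. Rplp0, the stalk protein that anchors Rplp1 and Rplp2, and Rpl24, which reaches across to the small subunit, were listed at 0 in every library, although every cell makes them. No table of coding lengths was used here, so counts of different genes are not compared as levels. Large-subunit genes have many processed pseudogene copies in the mouse genome, and how fragments that match more than 1 place were counted is not given in the sources used here. RefSeq's gene table names 129 pseudogenes after 29 of the 35 genes. The other 6 (Rpl4, Rpl6, Rpl8, Rpl11, Rpl23 and Rpl24) had a median total of 1699.5 counts over the 4 libraries, ranging from 0 to 4579. The 29 genes with a named copy had a median of 95 counts, from 0 to 4028. This count of copies is by symbol only and misses copies under other names, and its part in the counts was not tested. Of the 6 called genes, Rpl19 has 12 named copies, Rpl38 has 2, Rpl32 and Rpl13a have 1 each, and Rpl8 and Rpl11 have 0.

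**Figure D2:**
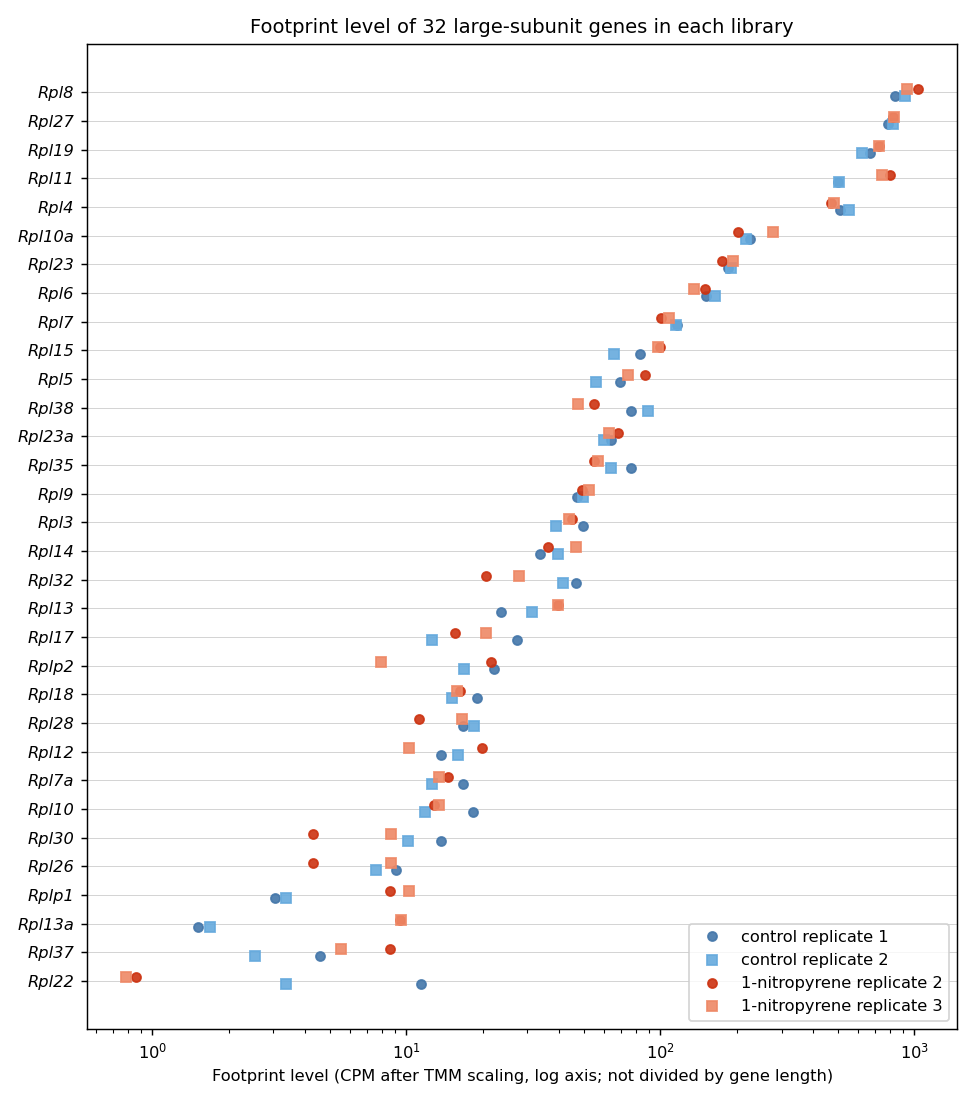
The footprint level in CPM after TMM scaling (horizontal log axis, not divided by gene length) of 32 large-subunit genes with a count in any library, with 1 point per library, circles and squares marking the libraries of a group, controls in blue and 1-nitropyrene libraries in red. The red points of Rpl11 (743 and 801 CPM) lie apart from its blue points (502 and 505 CPM), while for most other genes red and blue points lie close together.

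Rpl11 stood apart from the other large-subunit genes. Rpl11 (ENSMUSG00000059291) is a single protein-coding gene at chromosome 4, 136049354 to 136053393 (GRCm38.p6), and 0 other genes of RefSeq's gene table overlap it. It had 660 and 598 counts in the controls and 931 and 938 after 1-nitropyrene. These are levels of 502 and 505 CPM against 801 and 743 CPM, so that both treated libraries lay far above both controls and the controls differed little from each other. The level rose 1.53-fold, from 503 ± 1.78 to 772 ± 41.1 CPM (SD, n = 2 each; log2 fold change 0.62 ± 0.065 SE, edgeR adjusted p = 5.23e-19). By p-value Rpl11 ranked 52 among the 7719 genes tested, and 10.3% of tested genes had a larger log2 fold change. It was the 1 large-subunit gene called under all 14 alternatives run, with log2 fold changes from 0.45 (total counts) to 0.67.

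The rise of Rpl11 can also be read inside the family, where no scaling of libraries enters. Rpl11 took 10.6% and 10.5% of all large-subunit counts in controls and 15.4% and 14.5% after 1-nitropyrene, a ratio of 1.42. Rpl8, the most deeply counted of the family, served as a second yardstick: per count of Rpl8 there were 0.596 and 0.547 counts of Rpl11 in the controls and 0.776 and 0.796 after 1-nitropyrene. Both measures put the treated libraries above the controls with no overlap.

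Rpl5 binds 5S ribosomal RNA beside Rpl11 and enters the subunit with it. It had 91 and 66 counts in the controls and 101 and 94 after 1-nitropyrene, or 69.2 and 55.7 against 86.9 and 74.5 CPM. The treated libraries were above the controls, but Rpl5 did not pass the test (log2 fold change 0.36 ± 0.20 SE, edgeR adjusted p = 0.206). Its 95% interval of -0.03 to 0.75, from the SE, holds both 0 and the value of Rpl11, so the data do not show whether the pair moved alike. The count of Rpl11 per count of Rpl5 was 7.25 and 9.06 in controls and 9.22 and 9.98 after 1-nitropyrene. The overlapping coding gene Dipk1a lies at the same locus as Rpl5, and how fragments shared by overlapping genes were counted is not given.

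Rpl8 and Rpl19 rose by a small amount after TMM scaling; with total counts Rpl8 turned to the other side of 0 and Rpl19 lay just above it. Rpl8 (ENSMUSG00000003970) sits next to the peptidyl transferase centre. It had 1108 and 1093 counts in the controls and 1200 and 1178 after 1-nitropyrene. Its levels were 843 and 922 CPM against 1032 and 933 CPM, so that the nearest control and treated libraries almost met. The change was 1.11-fold (log2 fold change 0.16 ± 0.054 SE, edgeR adjusted p = 0.0286), but it was -0.0092 with total counts (adjusted p = 0.926). The call was lost without control replicate 1 (adjusted p = 0.470) and without 1-nitropyrene replicate 2 (0.437), and kept without either of the other libraries. Rpl8 made up 17.7% and 19.2% of large-subunit counts in controls and 19.9% and 18.2% after 1-nitropyrene, and these ranges overlap.

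Rpl19 (ENSMUSG00000017404) lies near the mouth of the exit tunnel and reaches to the small subunit. It had 876 and 740 counts in the controls and 847 and 916 after 1-nitropyrene. The levels of 666 and 624 CPM in controls and 729 and 726 CPM after 1-nitropyrene did not overlap. The 1.13-fold rise (log2 fold change 0.17 ± 0.062 SE, edgeR adjusted p = 0.0391) shrank to 0.0062 with total counts (adjusted p = 0.957). It lost its call when any 1 library was left out, with adjusted p of 0.0671 and 0.329 without control replicates 1 and 2 and 0.160 and 0.131 without 1-nitropyrene replicates 2 and 3. Its share of large-subunit counts was 14.0% and 13.0% against 14.0% and 14.1%. The coding gene Cacnb1 overlaps it.

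Rpl38 and Rpl32 fell. Rpl38 (ENSMUSG00000057322, chromosome 11, 114667818 to 114672333) encodes a small surface protein known for its part in translating Hox mRNAs in mouse embryos. It had 101 and 106 counts in the controls and 64 and 60 after 1-nitropyrene, or 76.8 and 89.4 against 55.1 and 47.5 CPM. Both treated libraries lay below both controls. The level was 1.62-fold lower (log2 fold change -0.70 ± 0.21 SE, edgeR adjusted p = 0.00809). The share of Rpl38 in large-subunit counts was 1.62% and 1.87% in controls and 1.06% and 0.926% after 1-nitropyrene. The scaling of libraries does not enter this share, but the rise of Rpl11 does, as it lowers the shares of the other members. Counts were also taken per count of Rpl8, which was itself called higher, so that this ratio is lowered too. There were 0.0912 and 0.0970 counts of Rpl38 per count of Rpl8 in controls and 0.0533 and 0.0509 after 1-nitropyrene. It passed without control replicate 1, but not without control replicate 2 (adjusted p = 0.159), 1-nitropyrene replicate 2 (0.0615) or 1-nitropyrene replicate 3 (0.121).

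Rpl32 (ENSMUSG00000057841, chromosome 6, 115805514 to 115808743) is a structural protein of the subunit. It had 61 and 49 counts in the controls and 24 and 35 after 1-nitropyrene, levels of 46.4 and 41.3 against 20.7 and 27.7 CPM. The groups did not overlap, and the level was 1.81-fold lower (log2 fold change -0.85 ± 0.29 SE, edgeR adjusted p = 0.0242). Its share of large-subunit counts, which the rise of Rpl11 also lowers, was 0.976% and 0.863% against 0.397% and 0.540%. The ratio to Rpl8 is likewise lowered by the higher call of Rpl8. There were 0.0551 and 0.0448 counts of Rpl32 per count of Rpl8 in controls and 0.0200 and 0.0297 after 1-nitropyrene. It passed without 1-nitropyrene replicate 3, but not without control replicate 1 (adjusted p = 0.163), control replicate 2 (0.0577) or 1-nitropyrene replicate 2 (0.236). The coding gene Cand2 and a small nucleolar RNA gene overlap Rpl32.

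Rpl13a had the highest fold change of the 31 genes and the lowest control counts among them. The protein is known for leaving the ribosome in interferon-treated myeloid cells, where it takes part in silencing inflammatory mRNAs. Rpl13a (ENSMUSG00000074129, chromosome 7, 45125563 to 45128745) had 2 and 2 counts in the controls and 11 and 12 after 1-nitropyrene, so that its control level was under the 3 counts that a count of 0 allows. The pooled counts of 4 and 23 give a ratio of 5.93, with a counting interval of 2.03 to 23.6 (exact, 95%). The fit gave a log2 fold change of 2.49 ± 0.77 SE (edgeR adjusted p = 0.0116). The gene passed the filter through the 1-nitropyrene libraries alone, so a difference was a condition of its being tested. The call was lost with limma-voom (adjusted p = 0.0633), with DESeq2 on the same genes (0.238) and without any 1 library: 0.242 and 0.209 without control replicates 1 and 2, 0.214 and 0.224 without 1-nitropyrene replicates 2 and 3. There are 4 small nucleolar RNA genes within its bounds, and their part in its counts was not tested.

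**Figure D3:**
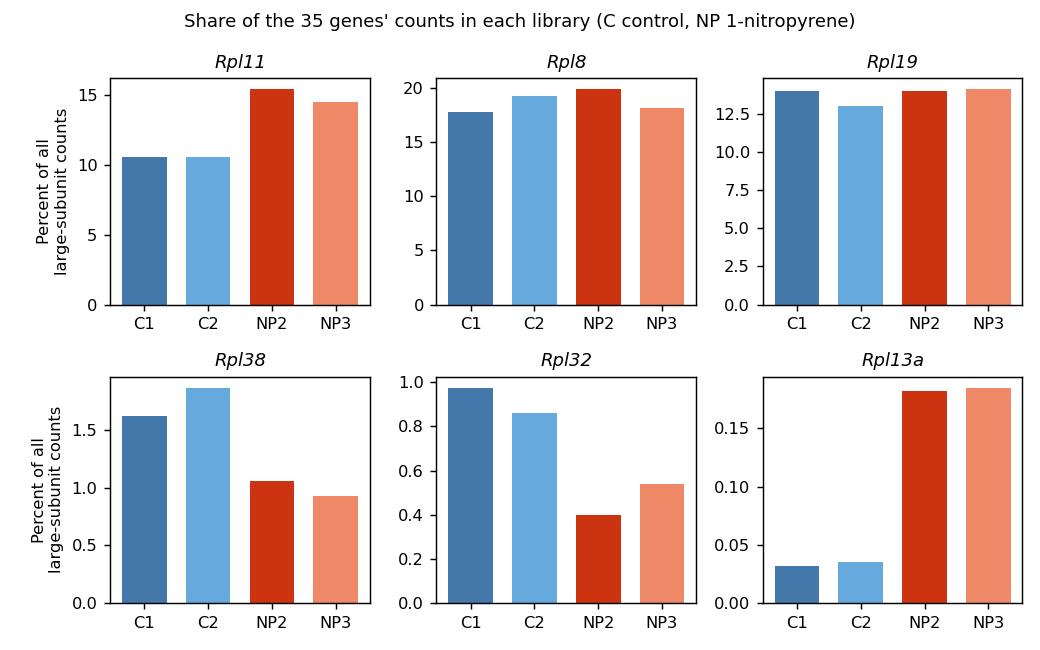
Bars give the percent of all counts on the 35 large-subunit genes that fell on each of the 6 called genes, in control replicates 1 and 2 (C1, C2, blue) and 1-nitropyrene replicates 2 and 3 (NP2, NP3, red); each panel has its own vertical axis from 0. The groups are apart for Rpl11 (10.6% and 10.5% against 15.4% and 14.5%), Rpl38, Rpl32 and Rpl13a, and close for Rpl8 and Rpl19.

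The stalk, which recruits and activates the translation factors that bind GTP, was thinly covered. Its anchor Rplp0 was listed at 0 in all 4 libraries. Rplp1 had 4 and 4 counts in the controls and 10 and 13 after 1-nitropyrene; the pooled ratio was 2.96 with a counting interval of 1.28 to 7.67, and the gene did not pass the test (edgeR adjusted p = 0.0939). It too passed the filter through the 1-nitropyrene libraries alone. Its partner Rplp2 had 29 and 20 counts in controls and 25 and 10 after 1-nitropyrene, and the groups overlapped (log2 fold change -0.43 ± 0.40 SE, adjusted p = 0.505). Rpl12, at the base of the stalk, had 18 and 19 counts against 23 and 13, again with overlap (0.01 ± 0.42 SE, adjusted p = 0.993). At these counts a 1.5-fold fall in Rpl12 or Rplp2 was not detectable, as it lay within their intervals, which ran from -0.82 to 0.84 and from -1.20 to 0.35.

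Of the other proteins of the core and of the side that meets the tRNAs, Rpl4 was the most deeply counted. Rpl4, which has a loop lining the exit tunnel, had 672 and 656 counts in the controls and 544 and 611 after 1-nitropyrene. Its levels of 511 and 553 against 468 and 484 CPM did not overlap, but the difference did not pass the test (log2 fold change -0.16 ± 0.073 SE, edgeR adjusted p = 0.115). With total counts it was called lower, at -0.32 (adjusted p = 0.00016). Inside the family it went from 10.8% and 11.6% to 9.01% and 9.43% of the counts, a share that the rise of Rpl11 also lowers. Per count of Rpl27 there were 0.647 and 0.672 counts of Rpl4 in controls and 0.566 and 0.581 after 1-nitropyrene. Rpl10a, of the stalk near the exit site of the tRNA, had 226 and 217 CPM in controls and 202 and 277 CPM after 1-nitropyrene, with the widest gap between treated libraries among the 16 deeper genes. Rpl3 and Rpl10, both close to the catalytic centre, had log2 fold changes of -0.01 ± 0.25 and -0.20 ± 0.43 SE.

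Around the mouth of the exit tunnel, where chaperones and the signal recognition particle dock, Rpl17, Rpl23a, Rpl26 and Rpl35 did not pass the test. Rpl35 was lower in both treated libraries, with 55.1 and 57.0 CPM against 76.8 and 64.1 CPM (log2 fold change -0.33 ± 0.21 SE, edgeR adjusted p = 0.286). Rpl23a had 63.9 and 59.9 CPM in controls and 68.0 and 62.6 CPM after 1-nitropyrene, and the groups overlapped (0.07 ± 0.21 SE, adjusted p = 0.866). Rpl17 and Rpl26 were counted between 5 and 36 times a library, with log2 fold changes of -0.16 ± 0.37 and -0.35 ± 0.58 SE.

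**Figure D4:**
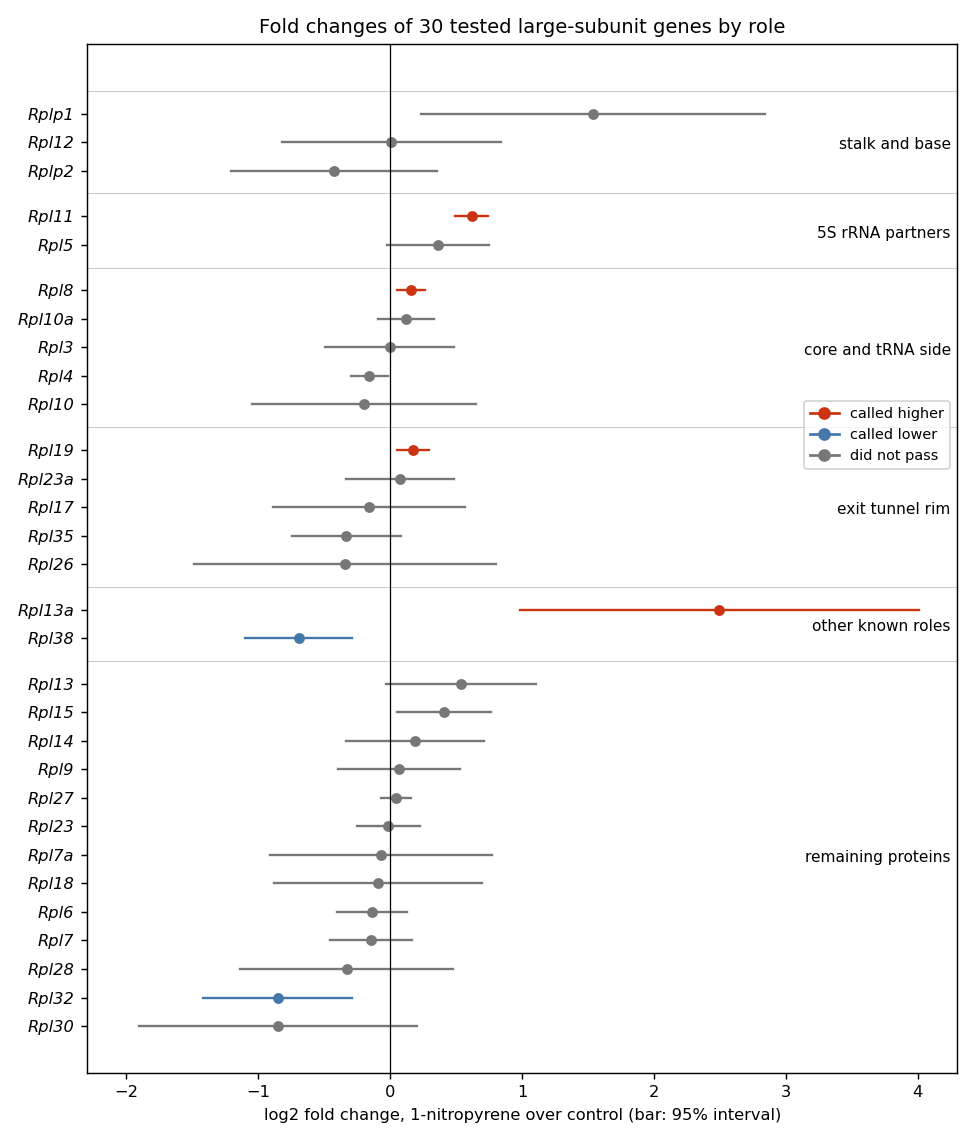
Points give the edgeR log2 fold change of 1-nitropyrene over control and bars its 95% interval from the SE, for 30 of the 31 tested large-subunit genes grouped by place in the subunit or known role, red where called higher, blue where called lower and grey where not called. Bars are short for deeply counted genes (Rpl8, 0.05 to 0.26) and long for thinly counted ones (Rpl30, -1.91 to 0.20).

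Rpl27 is the most precise case of a gene that did not pass. It had 1039 and 976 counts in the controls and 961 and 1052 after 1-nitropyrene, or 790 and 823 against 827 and 833 CPM. Its log2 fold change was 0.04 ± 0.057 SE, with an interval of -0.07 to 0.15, so a 1.5-fold change lies outside this interval. Such intervals take their spread from the trend over all genes, not from the gene's own replicates. Of the 25 genes that did not pass, 9 had such an interval, Rpl27 among them. Rpl23 had 185 and 189 CPM against 176 and 194 CPM, and its interval was -0.25 to 0.22.

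Among the remaining proteins, the best covered showed small differences. Rpl6 and Rpl7 were both lower in both treated libraries, at -0.14 ± 0.14 and -0.15 ± 0.16 SE on the log2 scale. Rpl15 had 82.9 and 65.8 CPM in controls and 99.8 and 98.2 CPM after 1-nitropyrene, and the groups did not overlap, at a log2 fold change of 0.41 ± 0.18 SE (edgeR adjusted p = 0.104). Rpl13 had 23.6 and 31.2 CPM against 39.6 and 39.6 CPM (0.54 ± 0.29 SE, adjusted p = 0.195). Rpl9 and Rpl14 had log2 fold changes of 0.07 ± 0.24 and 0.19 ± 0.27 SE. Rpl7a, Rpl18 and Rpl28 had 13 to 25 counts a library and log2 fold changes of -0.07 ± 0.43, -0.09 ± 0.40 and -0.33 ± 0.41 SE. Rpl30 had 18 and 12 counts in the controls and 5 and 11 after 1-nitropyrene, and its log2 fold change of -0.85 ± 0.54 SE had an adjusted p of 0.284.

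Besides Rplp0 and Rpl24, the genes left untested were Rpl22 and Rpl37. Rpl22, known for its part in the development of T cells, had 15 and 4 counts in the controls and 1 and 1 after 1-nitropyrene. In CPM the controls (11.4 and 3.37) lay further apart than the lower control and the treated libraries (0.860 and 0.792), though not as ratios. The pooled counts of 19 and 2 give a ratio of 0.109 with a counting interval of 0.0123 to 0.450. When no filter was set, edgeR called it lower. Rpl37 had 6 and 3 against 10 and 7 counts, a ratio of 1.95 with an interval of 0.821 to 4.96.

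Groups that do not overlap were about as common in the family as among all genes. Of the 31 tested genes, 9 were higher and 9 lower in both 1-nitropyrene libraries than in both controls, or 29.0% each. The shares over all tested genes were 28.6% and 28.7%. The 9 higher include Rpl13a and Rplp1, which passed the filter through the 1-nitropyrene libraries alone. The 9 lower include 1 gene that passed through the controls alone. At a mean count of 50 or more, 6 of 16 members were higher and 5 lower, beside 37.4% and 28.3% of 3242 genes. For the 16 genes counted at least 50 times on average, the median size of the difference in log2(CPM + 1) was 0.103 between the control libraries. Between the 1-nitropyrene libraries it was 0.108. The edgeR log2 fold change had a median size of 0.152, but it compares groups of 2 libraries, so these values are not like for like.

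The make-up of the family differed between the groups by more than within them, as did that of all genes. A chi-square statistic per degree of freedom, over members with at least 20 counts in a pair of libraries, was 1.19 for the pair of controls and 1.63 for the pair of treated libraries. The 4 pairs across groups gave 3.91 to 5.25. Over all genes with as many counts, the same statistic was 1.55 and 1.61 within groups and 5.82 to 6.02 across them. Without Rpl11 the family's pairs across groups gave 2.40 to 2.99, and the pairs within groups 1.24 and 1.61. Without all 6 called genes, which were removed because they differed, the range across groups was 1.63 to 1.88 beside 1.13 and 1.52 within. The statistic takes fragments as independent molecules.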

How the data were processed

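Ribosome footprints were counted in 4 libraries of MLE-12 cells, and the authors deposited whole-number counts per Ensembl gene ID with no normalization (0 other sample columns). The submitters' processing notes name mm10 and, without versions or roles, featureCounts, HISAT2, Bowtie, cutadapt and DESeq2; the annotation and how strand and multiply matching fragments were handled are not stated there. Genes were kept with edgeR's filterByExpr (minimum count 10, minimum total 15; 98.6% of counts) and compared by edgeR 4.0.16 (R 4.3.3, TMM, quasi-likelihood test, no covariates); the prior degrees of freedom were infinite, so each gene took its spread from the trend. SEs were derived from the fold change and F. Alternatives used DESeq2 1.42.0, limma 3.58.1, other scalings and filters, and leaving out each library. The script was tested on simulated data. The members, their role groups and all lists were chosen with earlier results of these data known. All 35 members were to be named; 1 is not reported here by name and is left out of the plots of single genes, but stays in all counts. Levels per coding length, symbol lists and cell type markers could not be computed, since no table used here gives coding lengths or pairs Ensembl IDs with symbols. Start sequences and coordinates are RefSeq's (GRCm38.p6).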

Additional observations from a re-analysis of the deposited data

How the results depend on the processing

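Rpl11 was called higher under all 14 alternatives (adjusted p from 1.91e-19 to 7.58e-05). The same 6 genes kept their calls with DESeq2's size factors and with TMM without the members or without the 2 most counted IDs. These scalings called 6 of 31 members either way, beside 17.3% of all genes each. Both other filters kept these calls too, with Rpl22 added when no filter was set. At 5 CPM in 2 libraries, 6 of 32 members were called, beside 14.9% of all genes. With no filter 7 of 33 were called, beside 8.52% of all genes with any count. Total counts moved the median of all genes to -0.17 and that of the members to -0.18. They called 2 of 31 members higher and 3 lower, beside 406 and 1110 of 7719 genes. Rpl8 and Rpl19 lost their calls, and Rpl8 turned to -0.0092. The DESeq2 Wald test called 1 member higher and 0 lower, also on the genes edgeR tested. On those genes it called 243 higher and 102 lower of all 7719. The cause was not tested. At least 1.5-fold left 2 members higher and 2 lower, beside 411 and 424 of all 7719 genes. With a mean count of 50 or more, 3 of 16 members were called higher and 1 lower, as fewer genes were counted. Over all 3242 such genes, 17.6% were called higher and 10.1% lower. Leaving out 1 library, with the spread of a lone sample taken from the other group, gave medians of the members from -0.078 to 0.075. The medians of all genes ran from -0.020 to 0.0078. The members' share of all counts differed by -0.0159 percentage points after 1-nitropyrene, and by 0.0105 without the 2 most counted IDs. No paired analysis was possible because 2 is the single replicate number found in both groups. Of 25 tested members that were not called, 9 have intervals inside 1.5-fold. Among the others, the intervals of Rpl15 (0.05 to 0.76) and Rplp1 (0.23 to 2.84) leave out 0, but neither passed after adjustment. Rplp1 was tested only through its treated libraries. For the rest, a 1.5-fold change lies within the interval, and depth limits what can be said. The DESeq2 run on edgeR's genes, the mean count of 50, the sums without single members and the filter level in all 4 libraries were chosen after seeing the data.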
